A study of Mus musculus with 17 samples.

Results

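The genes described here are 10 calmodulin-dependent kinases of the mouse: the kinase kinases Camkk1 and Camkk2, the CaMKI genes Camk1, Camk1d and Camk1g, the CaMKIV gene Camk4, and the CaMKII genes Camk2a, Camk2b, Camk2g and Camk2d. They were picked by symbol from the 55471 genes of the count table, and each symbol matched 1 gene. The rule uses no measured value, though the family was proposed with earlier results of these data known. The counts come from total RNA of the hippocampus of C57BL/6 mice 3 to 6 months of age, in 17 libraries of 2 genotypes and 3 treatments. CBP-ifKO mice carried floxed alleles of Crebbp, the gene of the CREB binding protein (CBP), and a tamoxifen-inducible Cre recombinase (creERT2) driven by the Camk2a promoter, which is active in excitatory neurons of the forebrain. Control mice were littermates without creERT2, although a field of the sample labels names Camk2a_creERT2 for control samples as well. Mice of both genotypes received 5 doses of tamoxifen (20 mg/mL in corn oil), the drug that lets creERT2 enter the nucleus. Sal mice were not kindled and were given saline on the last day. PTZ0 mice were kindled by injections of pentylenetetrazol (PTZ, a GABA-A receptor blocker that causes convulsions) at 45 mg/kg on alternate days and were given saline on the last day, 1 week after kindling. PTZ45 mice were kindled alike and were given PTZ at 45 mg/kg once more, and hippocampi were collected 45 min after the last injection. Each group had 3 libraries, except Control PTZ45 with 2, and the methods give individual male mice for the Sal samples. Nothing used here says this for the kindled groups, where the p-values measure the spread between libraries, which may be technical.

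Calcium that enters an active neuron binds calmodulin, and the complex switches on this family of serine/threonine kinases. CaMKK1 and CaMKK2 phosphorylate CaMKI and CaMKIV on their activation loop, and CaMKIV, which resides largely in the nucleus, phosphorylates CREB, the transcription factor that gave CBP its name. CaMKII assembles from several subunits into large holoenzymes, is among the most abundant proteins of excitatory synapses in the hippocampus, and is required there for long-term potentiation.

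Each library held between 5831992 and 18735643 counts and replicates differed by more than counting noise, so none was treated as a copy of another. Crebbp itself was at 1824 to 2429 normalized counts (counts divided by the DESeq2 size factor of the library) in the 8 control libraries and at 1061 to 1337 in the 9 CBP-ifKO libraries, without overlap. Esr1, whose ligand-binding part is carried by creERT2, was at 41.0 to 77.8 normalized counts in controls and at 703 to 941 in CBP-ifKOs. Fos, an immediate early gene, reached 2915 and 2483 normalized counts in the Control PTZ45 libraries and 163 to 288 in the CBP-ifKO PTZ45 libraries. These 3 genes followed the labels in every library. Marker genes of hippocampal granule cells, pyramidal cells, interneurons and glia were detected in every library. Choroid plexus markers summed to 10825 to 44347 normalized counts in 5 libraries (2 Control, 3 CBP-ifKO) and to 415 to 1113 in the other 12. The sequencing lane, read from the sample descriptions, was 3 for Control Sal and Control PTZ0, 4 for Control PTZ45 and CBP-ifKO Sal, and 5 for CBP-ifKO PTZ0 and CBP-ifKO PTZ45. Within each treatment, genotype and lane therefore cannot be told apart.

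In CBP-ifKOs the upstream kinases and their targets CaMKI gamma and CaMKIV had lower transcript levels, whereas the major CaMKII subunits did not pass the test. With all 17 libraries and treatment as a term, DESeq2 called 6 of the 10 genes (Benjamini-Hochberg adjusted p under 0.05 over all genes tested), all of them lower in CBP-ifKOs: Camk1g, Camkk2, Camk4, Camkk1, Camk1d and Camk2g. Over all genes tested, 19.3% were called in this comparison, and 11.5% were called lower. The median log2 fold change was -0.19 over the 10 kinases and 0.01 over all genes. In whole tissue, fewer cells of a type and less RNA per cell cannot be told apart.

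**Figure D1:**
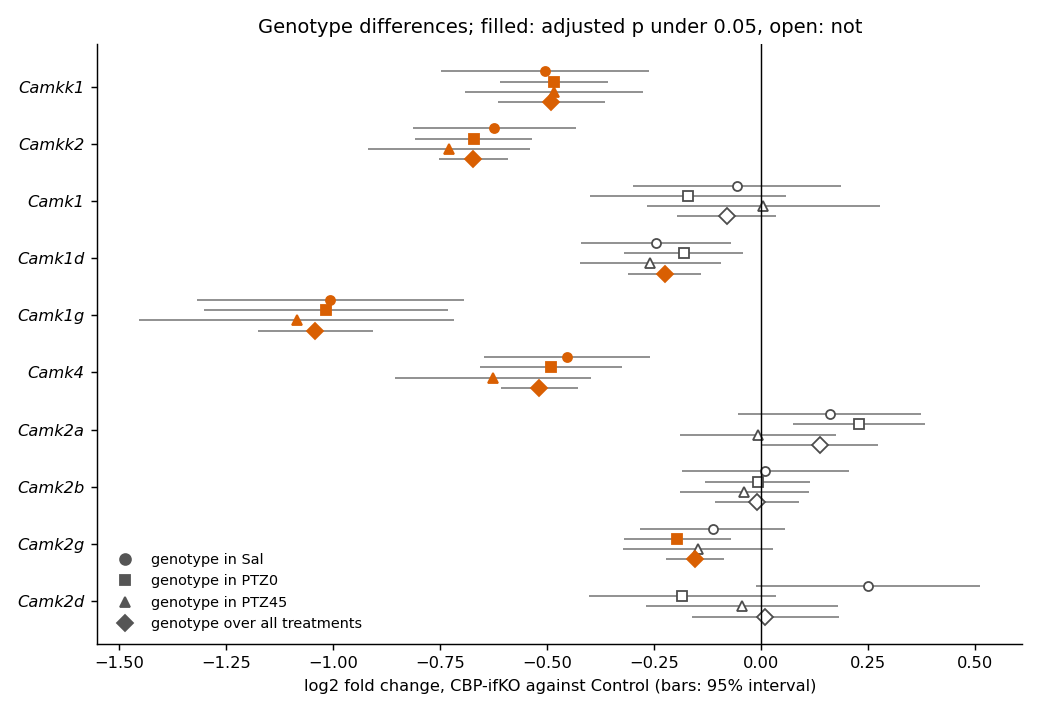
Log2 fold change of CBP-ifKO against Control (horizontal axis) for each of the 10 kinases, in Sal (circles), PTZ0 (squares), PTZ45 (triangles) and over all treatments (diamonds), with 95% intervals as bars and filled symbols for an adjusted p under 0.05. Camkk1, Camkk2, Camk1g and Camk4 lie below 0 with filled symbols in every treatment, and the symbols of Camk2b are open and close to 0.

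The 250 bases upstream of the annotated start are shown for both kinase kinases and for Camk1g, which were lower in CBP-ifKOs, and for Camk2b, which was not called, so that promoters of both kinds can be compared. They were taken from RefSeq on GRCm38.p6, the build of the counts, and read 5′ to 3′ along the gene: Camkk1 from chr11:73018738-73018987 (plus strand), Camkk2 from chr5:122779411-122779660 (minus strand), Camk1g from chr1:193370283-193370532 (minus strand) and Camk2b from chr11:6065749-6065998 (minus strand). Capitals mark the core of the cAMP response element (CRE), the element to which CREB binds.
Camkk1: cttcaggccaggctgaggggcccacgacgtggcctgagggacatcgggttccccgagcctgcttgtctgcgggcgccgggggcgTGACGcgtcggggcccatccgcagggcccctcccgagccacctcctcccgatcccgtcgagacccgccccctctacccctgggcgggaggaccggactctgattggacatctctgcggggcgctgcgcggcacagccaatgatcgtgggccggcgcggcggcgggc
Camkk2: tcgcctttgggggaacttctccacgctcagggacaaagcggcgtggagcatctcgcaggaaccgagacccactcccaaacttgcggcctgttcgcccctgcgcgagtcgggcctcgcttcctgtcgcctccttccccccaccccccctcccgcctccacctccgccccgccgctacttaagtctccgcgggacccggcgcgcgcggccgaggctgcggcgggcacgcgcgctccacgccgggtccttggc
Camk1g: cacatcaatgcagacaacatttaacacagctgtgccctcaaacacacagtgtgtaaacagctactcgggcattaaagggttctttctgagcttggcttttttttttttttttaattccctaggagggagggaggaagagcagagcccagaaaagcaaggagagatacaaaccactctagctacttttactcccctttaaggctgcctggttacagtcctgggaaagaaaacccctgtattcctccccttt
Camk2b: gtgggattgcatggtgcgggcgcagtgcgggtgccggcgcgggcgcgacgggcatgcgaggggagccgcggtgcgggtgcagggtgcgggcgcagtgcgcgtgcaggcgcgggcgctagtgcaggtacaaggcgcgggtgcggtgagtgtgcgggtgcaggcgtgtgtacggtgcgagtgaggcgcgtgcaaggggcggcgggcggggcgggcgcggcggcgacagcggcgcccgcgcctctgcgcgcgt
The full CRE (TGACGTCA, which reads the same on both strands) was searched in windows of 300 bases, from 250 before to 50 after the start, as was its core (TGACG or CGTCA, which the full element also contains). RefSeq windows were held for 7 of the 10 genes, with 2 starts for Camk1d. None of these windows contained a full CRE, which occurred in 1.79% of all 32851 windows. The core occurred in 20.8% of all windows, and among these kinases in Camkk1 (166 bases before the start) and Camk1 (185 bases before it). The promoters also differed in base composition. Camkk1, Camkk2 and Camk2b had a GC content of 75.3%, 73.3% and 77.3% with 36, 42 and 51 CpG dinucleotides, whereas Camk1g had 44.7% and 1 CpG, against a median of 52.7% and 7 CpG over all windows.

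Camkk2 encodes CaMKK2, which besides CaMKI and CaMKIV also phosphorylates AMP-activated protein kinase. The gene (ENSMUSG00000029471) lies at chr5:122731170-122779409. It was at 1537, 1668 and 1626 normalized counts in Control Sal, at 1534, 1572 and 1613 in Control PTZ0 and at 1621 and 1563 in Control PTZ45. The CBP-ifKO libraries gave 926, 1121 and 1111 in Sal, 1001, 1000 and 963 in PTZ0, and 966, 934 and 980 in PTZ45. The highest CBP-ifKO library was thus below the lowest control library, and the treatments differed little within either genotype. CBP-ifKOs held 62.8% ± 4.42 (SD, n = 9) of the control mean, a log2 fold change of -0.67 ± 0.04 (SE) over all treatments (DESeq2 adjusted p = 1.71e-57). By treatment it was -0.62 in Sal, -0.67 in PTZ0 and -0.73 in PTZ45, each called.

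Camkk1 (ENSMUSG00000020785, chr11:73019008-73042073), the second kinase kinase, is expressed mainly in brain. Its normalized counts were 2096, 2248 and 2030 in Control Sal, 2181, 2107 and 2161 in Control PTZ0 and 2065 and 1747 in Control PTZ45. In CBP-ifKOs they were 1209, 1438 and 1854 in Sal, 1573, 1563 and 1480 in PTZ0, and 1346, 1280 and 1462 in PTZ45. Within each treatment every CBP-ifKO library was lower than every control library, but the spread was wider than for Camkk2, and CBP-ifKO Sal replicate 3 lay above Control PTZ45 replicate 2. CBP-ifKOs held 70.6% ± 9.12 (SD, n = 9) of the control mean. The log2 fold change was -0.49 ± 0.06 (SE) over all treatments (DESeq2 adjusted p = 1.34e-12), -0.50 in Sal, -0.48 in PTZ0 and -0.48 in PTZ45, each called. In Sal the call was lost when Control Sal replicate 2 (adjusted p = 0.141), CBP-ifKO Sal replicate 1 (0.0875) or CBP-ifKO Sal replicate 2 (0.0735) was left out, and in PTZ45 when Control PTZ45 replicate 1 was left out (0.303), in the same DESeq2 test. The latter fit holds 1 control library, which is assumed to vary like the CBP-ifKO libraries. The call was also lost with the replicate block in PTZ45 (0.0767), without the libraries rich in choroid plexus RNA in Sal (0.865), and over all treatments with lane as a term (0.383). With edgeR's quasi-likelihood test the call in Sal was lost as well (adjusted p = 0.112).

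Camk1g, which encodes the membrane-anchored CaMKI gamma, showed the largest difference of the 10 genes. It lies at chr1:193346346-193370298 (ENSMUSG00000016179). Its normalized counts were 268, 266 and 254 in Control Sal, 275, 265 and 267 in Control PTZ0 and 298 and 276 in Control PTZ45. The CBP-ifKO values were 120, 154 and 128 in Sal, 145, 126 and 129 in PTZ0, and 128, 126 and 152 in PTZ45. All 9 CBP-ifKO libraries lay below all 8 control libraries, in every treatment at close to the same level. The level in CBP-ifKOs was 49.5% ± 4.58 (SD, n = 9) of the control mean, with a log2 fold change of -1.04 ± 0.07 (SE, DESeq2 adjusted p = 2.29e-49). By treatment it was -1.01 in Sal, -1.02 in PTZ0 and -1.09 in PTZ45, each called.

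The other CaMKI genes differed less. Camk1d (ENSMUSG00000039145, chr2:5293457-5714515), the gene of CaMKI delta, was at 2437, 2784 and 2934 normalized counts in Control Sal, 2826, 2703 and 2697 in Control PTZ0 and 2971 and 2895 in Control PTZ45. Its CBP-ifKO values were 2419, 2262 and 2211 in Sal, 2665, 2384 and 2217 in PTZ0, and 2511, 2481 and 2352 in PTZ45. The libraries of the 2 genotypes did not overlap within any treatment, though by a narrow margin in Sal and PTZ0. The log2 fold change of Camk1d was -0.23 ± 0.04 (SE) over all treatments (DESeq2 adjusted p = 5.32e-06), a call lost with lane as a term (adjusted p = 0.542). Within treatments it was -0.24 in Sal, -0.18 in PTZ0 and -0.26 in PTZ45 and not called (adjusted p = 0.161, 0.109 and 0.0617). In each treatment at least 1 alternative called it, at an adjusted p as low as 0.0372 in Sal, 0.00534 in PTZ0 and 0.0344 in PTZ45. Camk1 (ENSMUSG00000030272, chr6:113334124-113343984), the gene of CaMKI alpha, ranged from 370 to 429 normalized counts in controls and from 313 to 435 in CBP-ifKOs, so that the genotypes overlapped over nearly the whole range. Its log2 fold change was -0.08 with a 95% interval of -0.20 to 0.04 and was not called (DESeq2 adjusted p = 0.385). Exons of Camk1 overlap Ogg1 on the opposite strand by 232 bases, and whether the counting used strand is not given in the sources used here. The ratio of Camk1g to Camk1 counts within a library, picked after the values were seen, was 0.617 to 0.762 in controls and 0.311 to 0.463 in CBP-ifKOs. That of Camkk2 to Camk2b was 0.134 to 0.154 in controls and 0.0810 to 0.0973 in CBP-ifKOs. Such ratios do not depend on the size factor of the library.

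Camk4, on chromosome 18 (ENSMUSG00000038128), encodes CaMKIV. It was at 906, 859 and 837 normalized counts in Control Sal, 876, 901 and 958 in Control PTZ0 and 983 and 1035 in Control PTZ45. The CBP-ifKO libraries gave 635, 679 and 602 in Sal, 649, 673 and 625 in PTZ0, and 721, 622 and 614 in PTZ45. No CBP-ifKO library reached the lowest control library, and the Control PTZ45 libraries were the highest of all. CBP-ifKOs held 70.3% ± 4.13 (SD, n = 9) of the control mean, a log2 fold change of -0.52 ± 0.05 (SE, DESeq2 adjusted p = 4.26e-27). By treatment it was -0.45 in Sal, -0.49 in PTZ0 and -0.63 in PTZ45, each called. The call was lost with the replicate block in Sal (DESeq2 adjusted p = 0.0557) and PTZ45 (0.191), and in Sal without the libraries rich in choroid plexus RNA (0.213). Exons of Camk4 overlap the antisense gene 2310026I22Rik by 72 bases, so reads of that stretch are uncertain.

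**Figure D2:**
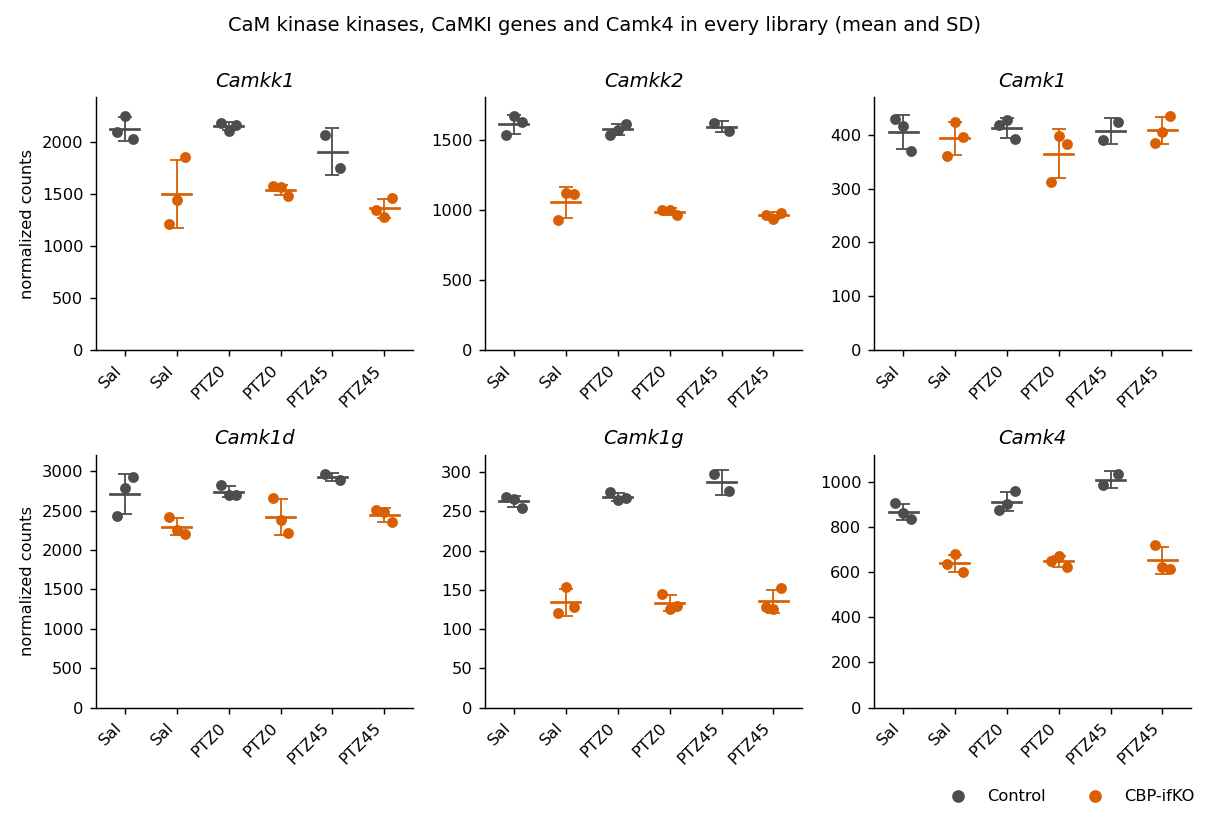
Normalized counts (vertical axis, from 0) of the kinase kinases, the CaMKI genes and Camk4 in every library, grouped by treatment, with Control in grey and CBP-ifKO in orange. Points are libraries, horizontal lines are means and error bars are SD (n = 3, and n = 2 for Control PTZ45). Camk1g, Camkk2 and Camk4 separate the genotypes completely, whereas Camk1 does not.

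Of the 4 CaMKII genes, 1 was called, Camk2g, where 19.3% of all genes were called, and its call was lost with lane as a term. Camk2a and Camk2b encode the alpha and beta subunits that make up most CaMKII of forebrain neurons, and Camk2g and Camk2d encode the more widely expressed gamma and delta subunits. Camk2g (ENSMUSG00000021820, chr14:20734875-20794088) was at 1937, 1918 and 1958 normalized counts in Control Sal, 2012, 2107 and 1941 in Control PTZ0 and 1934 and 2028 in Control PTZ45. Its CBP-ifKO values were 1642, 1961 and 1809 in Sal, 1734, 1768 and 1781 in PTZ0, and 1722, 1796 and 1837 in PTZ45. The genotypes overlapped in Sal, where CBP-ifKO Sal replicate 2 was above all 3 controls, and were apart in PTZ0 and PTZ45. The log2 fold change of Camk2g was -0.15 ± 0.03 (SE) over all treatments (DESeq2 adjusted p = 0.000173) and -0.20 in PTZ0 (adjusted p = 0.0367). The PTZ0 call was lost when any 1 of the 6 libraries was left out (adjusted p = 0.0558 to 0.373). It was also lost in 4 of the other 7 alternatives, at 0.0577 with the count filter, 0.0612 with TMM size factors, 0.149 with the replicate block and 0.873 without the libraries rich in choroid plexus RNA.

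Camk2a (ENSMUSG00000024617), on chromosome 18, was at 17925, 24045 and 25048 normalized counts in Control Sal, 21246, 21516 and 20416 in Control PTZ0 and 23835 and 20734 in Control PTZ45. The CBP-ifKO libraries gave 23027, 27384 and 24721 in Sal, 28919, 23074 and 22020 in PTZ0, and 21596, 24296 and 20562 in PTZ45. The genotypes overlapped in Sal and PTZ45, and in PTZ0 the CBP-ifKO libraries were all above the controls. The log2 fold change of Camk2a was 0.14 with a 95% interval of 0.00 to 0.27 over all treatments and was not called (DESeq2 adjusted p = 0.163). In PTZ0 it was 0.23 (adjusted p = 0.0539), and this value was called with TMM size factors (0.24, adjusted p = 0.0232) and without CBP-ifKO PTZ0 replicate 3 (0.30, adjusted p = 0.00852). The creERT2 transgene was made from a bacterial artificial chromosome of the Camk2a locus, which adds gene dose there in CBP-ifKOs. Camk2a reads from it cannot be told apart from those of the native gene.

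Camk2b (ENSMUSG00000057897, chr11:5969644-6066362) was at 9998 to 12314 normalized counts in controls (median 11208) and at 10012 to 12759 in CBP-ifKOs (median 10844). These ranges coincided almost entirely. Camk2b had a log2 fold change of -0.01 with a 95% interval of -0.11 to 0.09 (DESeq2 adjusted p = 0.924), and it was between -0.04 and 0.06 in all 24 alternatives of processing. Camk2d (ENSMUSG00000053819, chr3:126596302-126846326) was at 919, 648 and 650 normalized counts in Control Sal, 864, 1007 and 868 in Control PTZ0 and 912 and 1062 in Control PTZ45. In CBP-ifKOs it was at 854, 998 and 812 in Sal, 657, 799 and 943 in PTZ0, and 1011, 968 and 881 in PTZ45. The spread within Control Sal and within CBP-ifKO PTZ0 was wide, and Control Sal replicate 1, which was the lowest control for Camk2a and Camk2b, was far above the other Control Sal libraries. Without this library Camk2d was called higher in CBP-ifKO Sal than in Control Sal (0.44, DESeq2 adjusted p = 0.0317). Over all treatments Camk2d was at a log2 fold change of 0.01 with a 95% interval of -0.16 to 0.18 (DESeq2 adjusted p = 0.956).

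**Figure D3:**
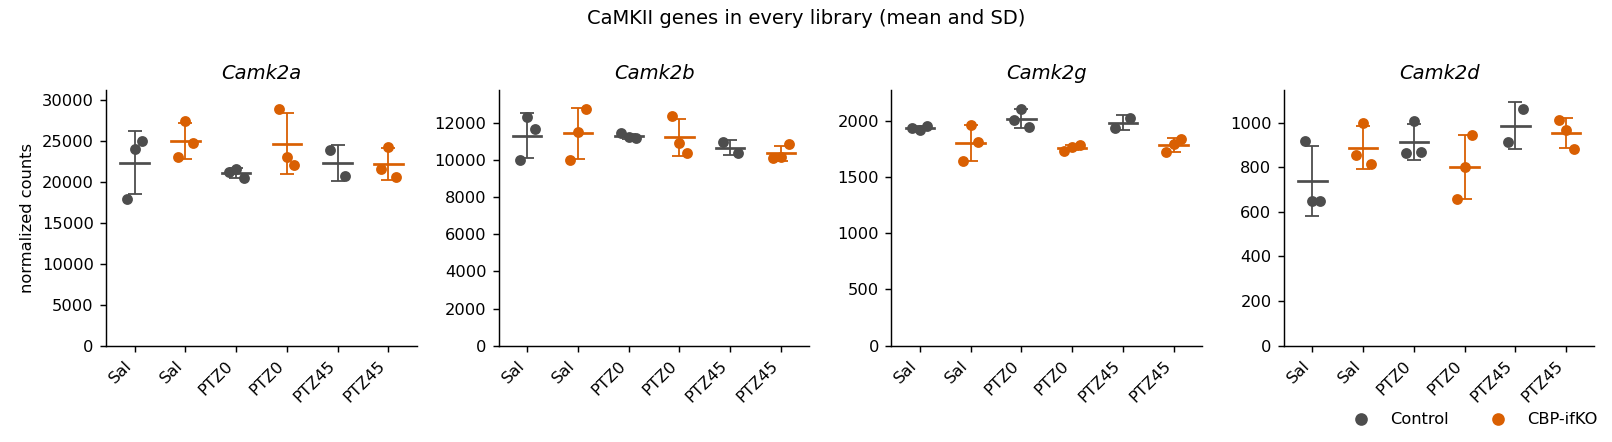
Normalized counts (vertical axis, from 0) of the 4 CaMKII genes in every library, with Control in grey and CBP-ifKO in orange, grouped by treatment. Points are libraries, horizontal lines are means and error bars are SD (n = 3, and n = 2 for Control PTZ45). Over all treatments the ranges of the genotypes overlap for all 4 genes, within PTZ0 they are apart for Camk2a and Camk2g and within PTZ45 for Camk2g, and the Control Sal libraries are spread widely for Camk2a and Camk2d.

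Per kilobase of exon, the scale on which genes can be compared, the controls ordered the family as follows. Camk2a was highest at 2926 ± 313 normalized counts per kb (SD, n = 8), followed by Camk2b at 1221 ± 79.3 and Camkk1 at 558 ± 40.5. Next came Camk1d at 374 ± 23.1, Camk2g at 309 ± 10.1 and Camk4 at 282 ± 20.7. The lowest were Camkk2 at 146 ± 4.36, Camk1g at 98.2 ± 4.65, Camk1 at 68.4 ± 3.66 and Camk2d at 38.5 ± 6.67. In this order only the ranges of Camk1d and Camk2g touched and those of Camk2g and Camk4 overlapped. The length of Camk2d in the table is 22493 bases, the longest of the family, which lowers its value on this scale. In CBP-ifKOs, Camk1g fell to 48.7 ± 4.50 normalized counts per kb (n = 9), and its mean was below that of Camk1 at 65.1 ± 6.00. The ranges of both overlapped there (43.6 to 55.7 and 52.4 to 72.8), and in CBP-ifKO PTZ0 replicate 1 both were at about the same level. Of the summed CaMKII level per kb, Camk2a made up 65.0% ± 1.81 in controls and 67.7% ± 1.87 in CBP-ifKOs, and Camk2g 6.92% ± 0.64 and 5.92% ± 0.51. These shares are descriptions and were not tested. In CBP-ifKOs, Camk2a reads of the transgene cannot be told apart from native ones, and any such reads would change all the shares.

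Each treatment was also compared between genotypes on its own. In Sal 4 of the 10 genes were called lower in CBP-ifKOs, where 2.04% of all genes were called and 1.77% were called lower. In PTZ0 it was 5 genes, where 6.68% of all genes were called and 5.25% were called lower. In PTZ45 it was 4 genes, where 3.07% of all genes were called and 2.82% were called lower. Camkk1, Camkk2, Camk1g and Camk4 were the genes called in each of the 3 treatments, and Camk2g was added in PTZ0. The log2 fold changes in Sal, PTZ0 and PTZ45 were -0.11, -0.20 and -0.15 for Camk2g, 0.25, -0.18 and -0.05 for Camk2d, and 0.16, 0.23 and -0.01 for Camk2a. Camk1 was at -0.06, -0.17 and 0.01, and Camk2b at 0.01, -0.01 and -0.04. The CBP-ifKO libraries lay wholly below the controls for 5 kinases in Sal, 6 in PTZ0 and 6 in PTZ45, and wholly above them for 0, 1 (Camk2a) and 0. Of all genes tested, 11.1%, 15.2% and 18.3% lay wholly below in the 3 treatments, and 10.1%, 13.6% and 15.5% wholly above. The comparisons in Sal, PTZ0 and PTZ45 share no library, but they share lanes, and lane differs between the genotypes in each.

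Lane moves with genotype in each of these comparisons. With lane as a further term, DESeq2 called 3 of the 10 genes, where 0.799% of all genes were called: Camk1g (log2 fold change -1.08, adjusted p = 0.00106), Camkk2 (-0.68, adjusted p = 0.000127) and Camk4 (-0.59, adjusted p = 0.0108). Camkk1 was at -0.50 ± 0.19 (SE, adjusted p = 0.383), Camk1d at -0.32 ± 0.14 (SE, adjusted p = 0.542) and Camk2g at -0.07 ± 0.12 (SE, adjusted p = 1). Camk2a changed sign to -0.07 and Camk1 to 0.12, Camk2d went from 0.01 to 0.39 ± 0.24 (SE, adjusted p = 0.914), and none of these was called. Lane 4 alone held both genotypes, but with different treatments. There the Control PTZ45 and CBP-ifKO Sal libraries gave 1563 to 1621 against 926 to 1121 normalized counts for Camkk2, 276 to 298 against 120 to 154 for Camk1g, 983 to 1035 against 602 to 679 for Camk4 and 2895 to 2971 against 2211 to 2419 for Camk1d. Camkk1 overlapped on this lane, at 1747 to 2065 against 1209 to 1854, as did Camk2g, at 1934 to 2028 against 1642 to 1961. The lane fit takes its genotype term from Control PTZ45 and CBP-ifKO Sal, adjusted by the treatment differences within lanes 3 and 5. These lane 4 ranges are therefore part of that fit and no separate evidence. That fit assumes that treatment acts alike in both genotypes and cannot test this. The libraries also differed in how log counts of genes follow their GC content (Spearman correlation 0.132 to 0.357 in Control Sal, -0.573 to -0.087 in CBP-ifKO PTZ45), and with a correction for it the same 6 kinases were called.

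Some markers of cell types were called between genotypes as well, beside the 19.3% of all genes called and 11.5% called lower. The 5 CA1 markers summed to 4118 to 4852 normalized counts in controls and 2827 to 3818 in CBP-ifKOs, and 4 were called lower, led by Wfs1 (log2 fold change -1.11), Mpped1 (-0.49) and Fibcd1 (-0.44). The 6 CA3 and CA2 markers summed to 2441 to 2885 and 1486 to 1868, with 3 called lower, led by Rgs14 (-1.09) and Prss35 (-0.58), and Map3k15 called higher (0.66). For these 2 lists the libraries of the genotypes did not overlap. The general markers of excitatory neurons summed to 8885 to 10186 in controls and 9286 to 11245 in CBP-ifKOs, and 1 of 5 was called, Neurod2 (0.29, higher). Dentate granule cell markers summed to 2729 to 3955 and 3042 to 4119, with Lct (0.75) and Prox1 (0.26) called higher and C1ql2 (-1.66) and Plk5 (-0.38) called lower. Interneuron markers summed to 6847 to 7207 and 6102 to 6892, with Sst (-0.28) and Gad1 (-0.14) called lower of 8. Astrocyte markers summed to 20173 to 21937 and 17270 to 21859, with Aldoc (-0.24), Slc1a3 (-0.18) and Gja1 (-0.11) called lower of 6. Of the markers of oligodendrocytes (6), microglia (5) and endothelium (5), DESeq2 called 1, Ly6c1 of endothelium (-0.29). Of 6 choroid plexus markers, Kl was at 0.94 (adjusted p = 0.21) and the other 5, led by Ttr at 1.93, received no adjusted p. None of these markers was at 0 in any library. With lane as a term, 3 of all these markers were called, C1ql2, Wfs1 and Rgs14, all lower, and the median log2 fold change was -0.55 for CA1 and -0.07 for CA3 and CA2 markers. The part of cell composition in the kinase results was not tested.

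Without the 5 libraries rich in choroid plexus RNA, an alternative chosen after seeing the data, DESeq2 called the same 6 kinases over all treatments, where 11.8% of all genes were called, at log2 fold changes from -0.99 for Camk1g to -0.13 for Camk2g. In Sal, where this left 2 libraries of each genotype and 0.493% of all genes were called, Camk1g (-0.92) and Camkk2 (-0.51) were called, while Camk4 (-0.46, adjusted p = 0.213) and Camkk1 (-0.33, adjusted p = 0.865) were not.

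No kinase passed the test for an effect of kindling or of PTZ. Lane moves with treatment in 4 of these 6 comparisons, and PTZ0 against Sal in Control and PTZ45 against PTZ0 in CBP-ifKO lie within a lane. In controls DESeq2 called 0 of the 10 genes in PTZ45 against Sal (1.17% of all genes were called), in PTZ0 against Sal (0.00843%) and in PTZ45 against PTZ0 (1.25%). At an unadjusted p under 0.05 there were 2, 0 and 1 of them. In CBP-ifKOs it called 0 in PTZ45 against Sal (0.294% of all genes), in PTZ0 against Sal (0.0112%) and in PTZ45 against PTZ0 (0.0872%), with 1, 0 and 2 at an unadjusted p under 0.05. edgeR's quasi-likelihood test called 0 in all 6 comparisons. Over the 60 values the log2 fold changes ranged from -0.18 to 0.41, and their 95% intervals reached from -0.40 to 0.69.

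**Figure D4:**
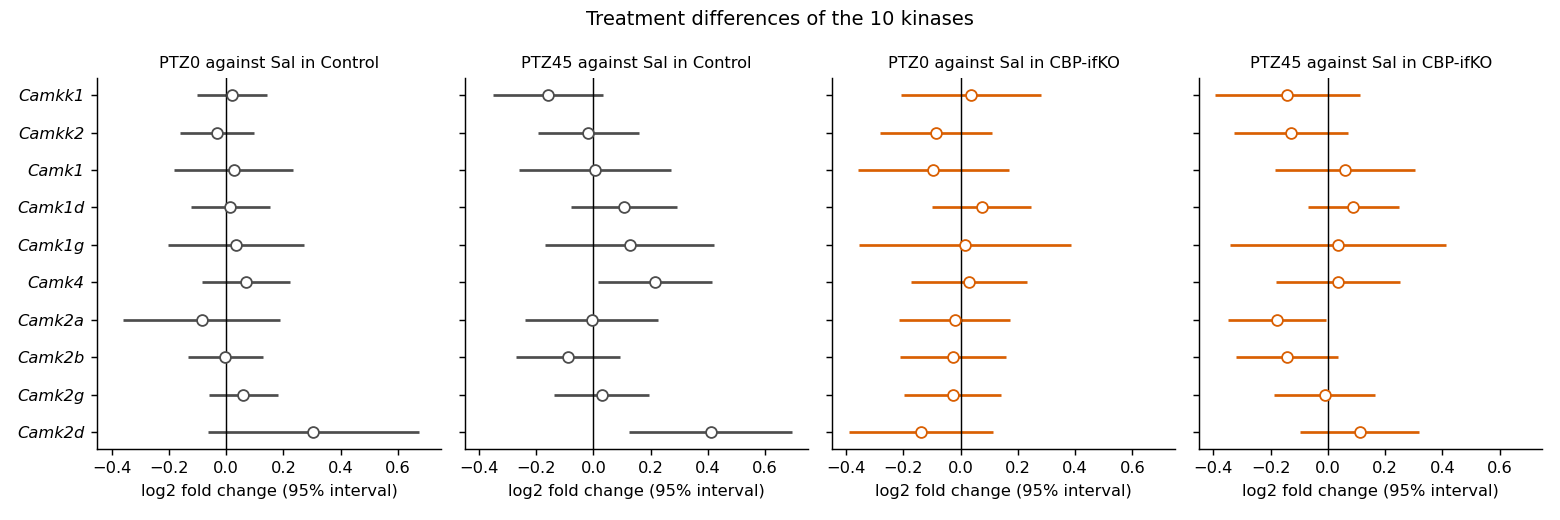
Log2 fold change (horizontal axis) of each of the 10 kinases in PTZ0 and PTZ45 against Sal, for Control (grey) and CBP-ifKO (orange), with 95% intervals as bars. All symbols are open because no adjusted p was under 0.05, Camk2d and Camk4 in Control PTZ45 have intervals above 0, and Camk2a in CBP-ifKO PTZ45 has an interval below 0.

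The largest treatment difference was that of Camk2d in controls, with a log2 fold change of 0.41 ± 0.15 (SE) in PTZ45 against Sal (DESeq2 adjusted p = 0.217). Its size depends on Control Sal replicate 1, the highest of that group at 919 normalized counts. Without this library DESeq2 called Camk2d higher in PTZ45 (0.60, adjusted p = 0.000704) and in PTZ0 (0.49, adjusted p = 0.000601) than in Sal, and called Camk2a lower in PTZ0 (-0.22, adjusted p = 0.000172). In CBP-ifKOs Camk2d was at 0.11 ± 0.11 (SE) in PTZ45 against Sal (adjusted p = 1). Camk4 differed by 0.21 ± 0.10 (SE) between Control PTZ45 and Control Sal (adjusted p = 0.576) and by 0.04 ± 0.11 between the CBP-ifKO groups (adjusted p = 1). Camkk1 was lower in PTZ45 than in PTZ0 by a log2 fold change of -0.17 ± 0.08 (SE) in controls (adjusted p = 0.527) and of -0.18 ± 0.08 in CBP-ifKOs (adjusted p = 1). Leaving out a Control PTZ45 library leaves 1, which is then assumed to vary like the PTZ0 libraries. So fitted, Camkk1 in controls was at -0.30 without replicate 1 (DESeq2 adjusted p = 0.00968) and Camk2a at 0.18 without replicate 2 (adjusted p = 0.0297).

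Camk2a was at -0.18 ± 0.09 (SE) in PTZ45 against Sal in CBP-ifKOs (DESeq2 adjusted p = 1), the lowest of the 60 values, and at -0.01 in controls. In the same comparison, Camkk2 was at -0.02 in controls and -0.13 in CBP-ifKOs, Camk1 at 0.00 and 0.06, Camk1d at 0.11 and 0.09, and Camk1g at 0.13 and 0.04. Camk2b was at -0.09 and -0.14, and Camk2g at 0.03 and -0.01. In PTZ0 against Sal the 10 kinases ranged from -0.08 (Camk2a) to 0.30 (Camk2d) in controls and from -0.14 (Camk2d) to 0.07 (Camk1d) in CBP-ifKOs. In PTZ45 against PTZ0 they ranged from -0.17 (Camkk1) to 0.14 (Camk4) in controls and from -0.18 (Camkk1) to 0.25 (Camk2d) in CBP-ifKOs.

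To ask whether kindling with a last PTZ injection acted differently in CBP-ifKOs, an interaction term was fitted to the Sal and PTZ45 libraries. Sal mice were not kindled, so the term holds kindling and the last injection together. The groups lie on lanes 3, 4 and 5, and lane differences cannot be told apart from it. DESeq2 called 0 of the 10 kinases, with 0 at an unadjusted p under 0.05, and edgeR called 0, where DESeq2 called 0.329% of all genes. The interaction of Camk2d was -0.30 with a 95% interval of -0.67 to 0.07, and that of Camk4 was -0.18 with an interval of -0.45 to 0.10. The interaction was -0.17 for Camk2a, -0.11 for Camkk2, -0.08 for Camk1g and between -0.06 (Camk2b) and 0.06 (Camk1) for the other 5.

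Other genes of the pathway were taken from 7 fixed lists. The calmodulin genes Calm2 and Calm3 and the calmodulin-binding buffers Nrgn (neurogranin), Gap43 and Pcp4 form the first list, in which 4 of 5 were called lower in CBP-ifKOs over all treatments and 0 higher, with a median log2 fold change of -0.33. Over all genes 11.5% were called lower and the median was 0.01. Nrgn fell from 2249 ± 223 normalized counts (SD, n = 8) to 1722 ± 309 (n = 9), a log2 fold change of -0.37 ± 0.06 (SE, DESeq2 adjusted p = 6.66e-08). The log2 values of the others were -0.39 for Gap43, -0.33 for Calm3 and -0.27 for Calm2, and Pcp4, at -0.16, was not called (adjusted p = 0.175). The CaMKII inhibitors moved in opposite directions. Camk2n1 went from 4716 ± 155 to 3450 ± 277 normalized counts (log2 fold change -0.45, adjusted p = 4.66e-20 in DESeq2), and the less abundant Camk2n2 from 169 ± 16.6 to 230 ± 31.8 (0.44, adjusted p = 1.68e-07). Camkv, a CaM kinase-like protein without kinase activity, was at a log2 fold change of -0.49 (adjusted p = 1.33e-14).

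**Figure D5:**
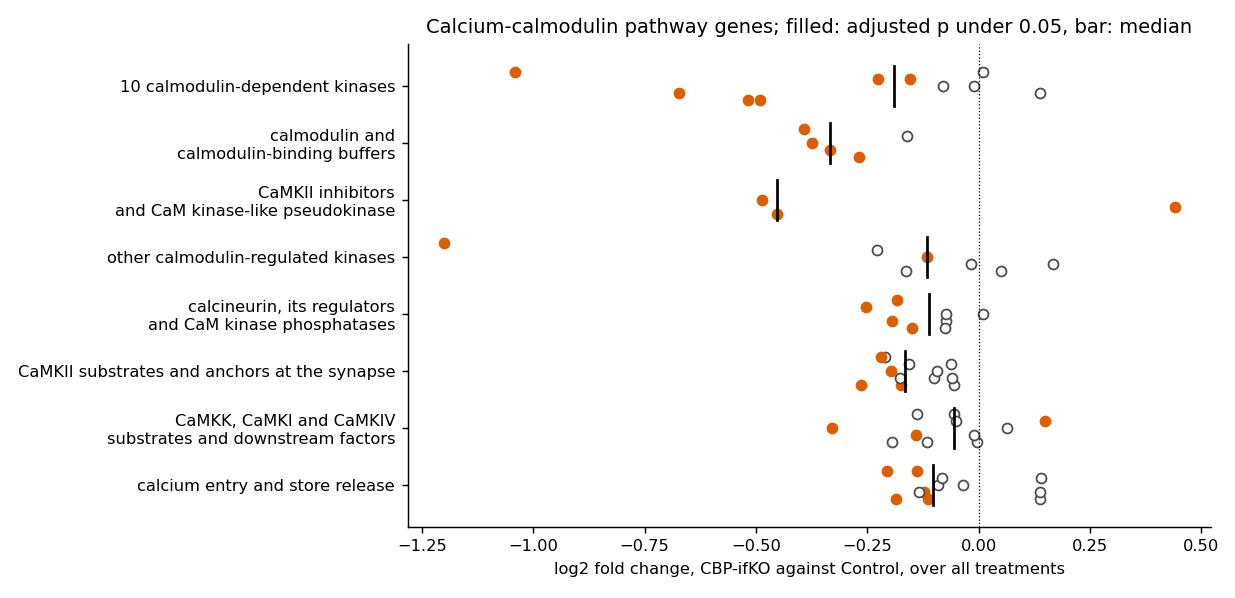
Log2 fold change of CBP-ifKO against Control over all treatments (horizontal axis) for the 10 kinases and the genes of 7 lists of the calcium-calmodulin pathway, 1 point per gene with an adjusted p. Filled points have a DESeq2 adjusted p under 0.05 and vertical bars are medians. The medians of all rows lie below 0, that of the 3 CaMKII inhibitors and pseudokinase at -0.45 being the lowest.

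The counts of the remaining lists stand beside the 19.3% of all genes called and 11.5% called lower in this comparison. Among calcineurin genes, their regulators and the CaM kinase phosphatases, 4 of 8 were called lower, namely the calcineurin regulatory subunit Ppp3r1 (-0.25), the calcineurin inhibitor Rcan1 (-0.19), the CaM kinase phosphatase Ppm1e (-0.18) and the catalytic subunit Ppp3ca (-0.15). Among CaMKII substrates and anchors at the synapse, 4 of 12 were called lower, namely the scaffolds Dlg4 (-0.27) and Shank3 (-0.22), the NMDA receptor subunit Grin2a (-0.20) and Lrrc7 (-0.18), the gene of densin. Of 12 genes of calcium entry and store release, 5 were called lower, led by the channel subunits Cacnb3 (-0.21) and Cacnb4 (-0.19), the pump Atp2a2 (-0.14) and the receptor Itpr1 (-0.12). This list also holds calcium pumps, which remove calcium from the cytosol, and the call not named is another pump. Downstream of CaMKK, CaMKI and CaMKIV, 2 of 11 were called lower, the histone deacetylases Hdac5 (-0.33) and Hdac4 (-0.14), and 1 higher, the AMP-activated kinase subunit Prkaa1 (0.15). With the GC correction Shank3 and Hdac4 were not called, while Mef2c was called lower and Phkg2 and Cacna1b higher. The lower calls rose to 5 of 8 in the calcineurin list and 6 of 12 in the list of calcium entry and pumps. Creb1, the gene of the CaMKIV substrate CREB, was at -0.0038 ± 0.04 (SE, adjusted p = 0.963). Of 8 other calmodulin-regulated kinases, 2 were called lower, Mylk3 (-1.20, from 19.3 to 8.68 normalized counts) and Dapk1 (-0.12). The medians of these 5 lists were -0.11, -0.17, -0.10, -0.06 and -0.12 in the order given. With lane as a term, where 0.799% of all genes were called, 0 genes of the 7 lists were called, though the medians were -0.25 for calmodulin and its buffers, -0.32 for the CaMKII inhibitors and Camkv, -0.17 for calcineurin, -0.28 for the synapse list, -0.18 for calcium entry, -0.10 for the downstream factors and -0.0098 for the other calmodulin-regulated kinases. In the 6 treatment comparisons the calls were Nrgn (-0.48, DESeq2 adjusted p = 0.00506) and Shank3 (-0.45, adjusted p = 0.00771), both lower in PTZ45 than in Sal in CBP-ifKOs, which also differ in lane. With the GC correction neither was called (-0.29, adjusted p = 0.548, and -0.19, adjusted p = 1), while Syn1 and Cacna1a were called higher in PTZ45 than in PTZ0 in controls.

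The genes whose pattern was most like that of a kinase were sought among the 13041 genes that averaged 50 normalized counts or more. Over the 6 group means, which share the same libraries and the genotype difference, the highest Pearson correlations of log2 counts were with Cdh13 (0.999), Caln1 (0.999) and Fcgr3 (0.998) for Camk1g, with Shc3 (0.998), Dkk3 (0.997) and Mirt1 (0.997) for Camkk2, with Lmo7, Sorcs3 and Ssbp2 (0.998 each) for Camk4, and with Golga7b (0.999), Syt12 (0.995) and Prkar1b (0.995) for Camkk1. Within groups, over the deviations of the 17 libraries from their group means, they were with Asic2 (0.876) for Camk1g, Acvr1b (0.954) for Camkk2, Orc4 (0.915) for Camk4, Pfkl (0.951) for Camkk1, Dscaml1 (0.952) for Camk2a and Baiap2 (0.944) for Camk2b. Points within groups share library, depth and GC trend, and these correlations carry no test.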

How the data were processed

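The authors trimmed single-end reads (Trim Galore 0.6.4), aligned them with STAR 2.6.1 to GRCm38 (mm10), kept reads with a mapping quality over the minimum their methods state and counted them on Ensembl exons with Rsubread. The values used are the raw counts per gene that the authors deposited, with the exonic length of each gene, which was used for levels per kilobase. Strand use is not given in the sources used here. Of 18 count columns, 1 had no sample and was used in no step. Gene positions come from GENCODE M21 on GRCm38 (99.6% of 55471 identifiers matched).

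The main test was the two-sided Wald test of DESeq2 1.42.0 (R 4.3.3), with Benjamini-Hochberg adjustment over all genes and independent filtering. Pairs of groups were fitted alone, and the genotype over all treatments with treatment as a term. SE is that of the log2 fold change, and 95% intervals are 1.96 SE on either side. The alternatives tried were edgeR 4.0.16 (quasi-likelihood), TMM size factors, a count filter (10 counts, 2 libraries) instead of independent filtering, GC correction (loess, span 0.5), 1 fit of all 17 libraries, a lane term, a block for the replicate number, omission of single libraries and, chosen after seeing the data, omission of the 5 libraries rich in choroid plexus RNA. The fits were tested on simulated data. All 10 genes were tested and described in every comparison, by value or range. Named besides them are at most 4 called genes per list, the most similar genes, and Crebbp, Esr1 and Fos as checks. The kinases and lists were chosen with earlier results of these data known. A gene of the lists is not reported here.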

Additional observations from a re-analysis of the deposited data

How the results depend on the processing

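Over all treatments, the 6 calls and their direction held under every alternative except lane as a term, which called 3 (Camk1g, Camkk2 and Camk4). With the replicate number as a block, 2 genes were called in PTZ45 (Camk1g and Camkk2) instead of 4, where 0.735% of all genes were called instead of 3.07%, and Camk4 was lost in Sal (adjusted p = 0.0557). Control PTZ45 replicate 2 bears the number 3 in the name of its count column, so this block may match the wrong libraries in PTZ45. Deviations of same-numbered libraries correlated between -0.523 and 0.479, with values over 0.1 in 8 of 24 pairs. Libraries with different numbers were not compared, so whether the numbers pair the libraries was not tested. Without the libraries rich in choroid plexus RNA, 2 genes were called in Sal. Leaving out single libraries gave 6 calls throughout for the genotype over all treatments, then 3 to 6 (Sal), 4 to 5 (PTZ0) and 3 to 4 (PTZ45). It gave 0 to 2 calls in PTZ0 against Sal and 0 to 1 in PTZ45 against Sal and in PTZ45 against PTZ0 in controls, and 0 in the CBP-ifKO comparisons and the interaction. The changed treatment calls came without Control Sal replicate 1 and without either Control PTZ45 library. The cause of these changes was not tested, beyond the smaller number of libraries that some alternatives leave. No called value changed sign. The number of libraries, 2 or 3 per group, limits the precision of the treatment comparisons.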
